A study of Mus musculus with 8 samples.

Results

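The genes of the Wnt signaling system, namely the *Wnt* ligands, the Frizzled (*Fzd*) receptors and the secreted modulators of both, were compared between dystrophic and WT muscle. Members were taken from the gene table by symbol, as *Wnt*, *Fzd*, *Sfrp*, *Dkk* or *Rspo* followed by a digit, together with *Wif1*, *Frzb*, *Lrp5*, *Lrp6* and *Axin2*. They numbered 48 of the 55401 genes listed, 46 of them protein coding, and 25 of the 48 passed the filter on low values (normalized counts averaging 10 or more over the 8 muscles), as did 13677 genes in all. RNA-seq had been performed on the tibialis anterior (TA), a fast muscle of the lower leg, in 4 *mdx5cv* and 4 WT muscles from males aged 6 mo. The *mdx5cv* mouse carries a mutation of *Dmd*, the dystrophin gene, and serves as a model of Duchenne muscular dystrophy (DMD). Both groups shared the C57/Bl6 background and no agent was given to either. Each sample was a whole muscle, so the RNA of fibers, connective tissue, vessels, nerve and blood cells was measured together, and fewer cells of a type cannot be told apart from less RNA per cell. The labels do not say outright that each muscle came from a different mouse, so the p-values measure only the spread between these samples.

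Wnt proteins are secreted lipid-modified ligands that bind Frizzled receptors. With the co-receptors Lrp5 and Lrp6 they keep β-catenin from being degraded, and β-catenin then acts with TCF/LEF factors on target genes such as *Axin2*. Other Wnt signals run without β-catenin, through planar polarity proteins or calcium. Secreted frizzled-related proteins and Wif1 bind the ligands, Dickkopf proteins act at the co-receptors, and R-spondins raise the number of Frizzled receptors at the surface. In skeletal muscle the system is known for its part in satellite cells, the stem cells of muscle, and in fibrosis.

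Reads recovered from the normalized counts came to between 13862559 and 14921057 per WT muscle and between 13175524 and 14502624 per *mdx5cv* muscle. The Wnt members held 3852 to 5292 of these, or 0.0258% to 0.0377%, so that counting error is large for the low members. *Dmd* was lower in every *mdx5cv* muscle, at 3964 ± 388 against 6954 ± 857 normalized counts in WT (SD, n = 4). Markers of mature fast fibers, such as *Myh4* and *Ckm*, stood at the highest levels of any marker list in both groups. With equal totals per muscle instead of the authors' size factors, the median of the log2 fold changes over all 13677 genes would be 0.36 and not 0.00, and 4 members slightly below 0 (*Dkk2*, *Fzd7*, *Fzd10* and *Lrp5*) are above it with that choice.

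Of the 25 members tested with limma, 2 rose and 5 fell past both thresholds, which were an adjusted p of 0.05 and a change of 1 or more on the log2 scale in either direction. *Sfrp2* and *Sfrp4* rose, and *Frzb*, *Sfrp5*, *Dkk3*, *Fzd9* and *Wnt4* fell. The members that fell made up 5 of 25 (20%) of those tested, beside 3.27% of all genes, and those that rose 2 of 25 (8%), beside 10.3% of all genes. *Sfrp2* averaged under 10 in WT (5.15) and *Sfrp5* in *mdx5cv* muscles (9.17), so each passed the filter only through the group where it was high. Without the minimum fold change 4 of 25 members were higher and 8 lower, beside 20.9% and 20.1% of all genes. The 4 *mdx5cv* values lay above all 4 WT values for 4 members and below them for 8, beside 20.3% and 19.8% of all genes. The median log2 fold change of the 25 was -0.12, and that of all genes tested was 0.00. Under equal totals 2 members rose and 3 fell, and among all genes the split moved from 1414 higher and 447 lower to 2256 and 210.

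**Figure D1:**
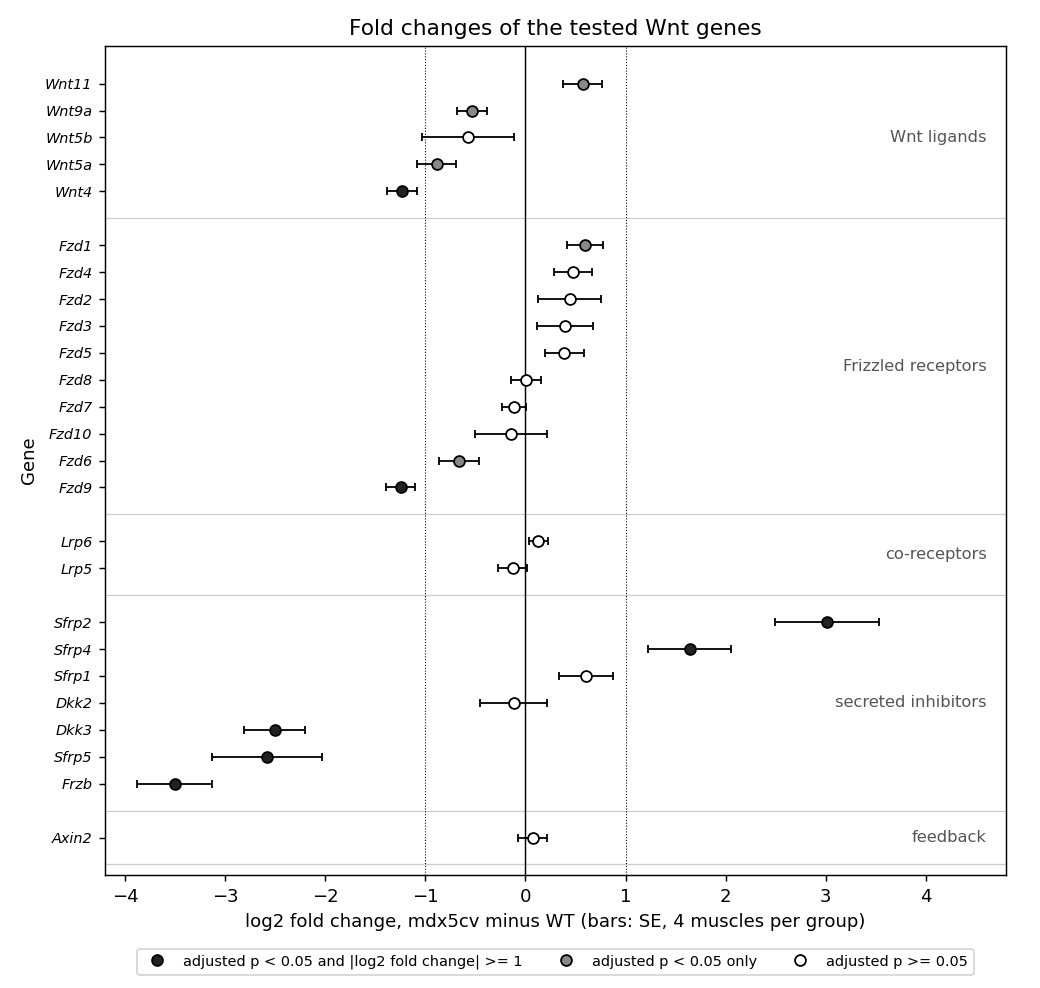
Log2 fold change (*mdx5cv* minus WT, horizontal axis) of the 25 tested members, grouped by role, with the SE as bars (4 muscles per group) and dotted lines at 1 and -1. Filled points pass both thresholds, grey points only the adjusted p, and the 4 largest changes, *Frzb*, *Sfrp2*, *Sfrp5* and *Dkk3*, all belong to secreted inhibitors.

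The promoters of *Sfrp5*, which fell, of *Sfrp2*, which rose, and of the feedback gene *Axin2* are shown because they are the genes among the called members and *Axin2* whose start sites are the same in RefSeq and GENCODE M21. The RefSeq table (GRCm38.p6) held a promoter for 30 of the 48 members and for 6 of these 8. Each line gives the 250 bases before the start site, 5′ to 3′ on the gene's strand, in lower case with any motif in capitals. *Sfrp5* lies on the minus strand (chr19:42202253-42202502), *Sfrp2* on the plus strand (chr3:83766071-83766320) and *Axin2* on the plus strand (chr11:108920099-108920348).
Sfrp5: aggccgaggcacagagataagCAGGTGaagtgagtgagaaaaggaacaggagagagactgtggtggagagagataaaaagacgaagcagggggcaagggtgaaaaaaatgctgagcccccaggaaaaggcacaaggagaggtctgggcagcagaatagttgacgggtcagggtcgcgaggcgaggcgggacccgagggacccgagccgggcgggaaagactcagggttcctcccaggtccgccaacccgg
Sfrp2: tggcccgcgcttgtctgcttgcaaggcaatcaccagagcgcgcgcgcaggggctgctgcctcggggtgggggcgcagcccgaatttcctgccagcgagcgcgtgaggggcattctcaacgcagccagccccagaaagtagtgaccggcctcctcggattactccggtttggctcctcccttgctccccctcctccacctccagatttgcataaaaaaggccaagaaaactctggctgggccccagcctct
Axin2: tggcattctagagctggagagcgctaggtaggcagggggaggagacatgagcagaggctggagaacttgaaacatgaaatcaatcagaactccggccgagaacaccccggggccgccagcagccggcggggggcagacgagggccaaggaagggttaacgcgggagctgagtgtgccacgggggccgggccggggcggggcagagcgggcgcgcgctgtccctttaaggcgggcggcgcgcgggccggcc

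The motifs searched on both strands were the TCF/LEF site (CTTTG followed by 2 bases that are each A or T) and the E-box (CANNTG). The E-box is a class of sites that includes, but is wider than, those bound by MyoD and related myogenic factors. The *Sfrp5* window held 1 E-box (CAGGTG), while the windows of *Sfrp2* and *Axin2* held none. No TCF/LEF letters were found in these 3 windows or in those of *Frzb*, *Fzd9* and *Wnt4*, each of which held 1 E-box. Among all 32851 RefSeq windows of the same length, 14.8% held a TCF/LEF site and 66.2% an E-box. A match describes letters only, and the known TCF/LEF sites of a gene may lie outside this window.

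The *Wnt* ligands were few and low. Of 19 ligand genes, 5 had no read in any muscle (*Wnt1*, *Wnt3a*, *Wnt7a*, *Wnt8a* and *Wnt8b*), 9 more stayed under the filter and 5 were tested. A count of 0 allows up to 3 reads per muscle, or 2.40 to 3.44 normalized counts. Of the 5 tested, 1 fell past both thresholds, 1 was higher and 2 were lower by adjusted p alone.

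*Wnt4*, a ligand known from kidney and gonad development, had 186, 185, 217 and 284 normalized counts in WT muscles. In *mdx5cv* muscles it had 91.7, 101, 84.7 and 85.5. Every *mdx5cv* muscle was below every WT muscle, and the WT values spread more widely. The mean fell from 218 ± 46.4 to 90.7 ± 7.52 (SD, n = 4), which is -1.24 on the log2 scale with an SE of 0.15 and a limma adjusted p of 4.42e-05. Under equal totals its log2 fold change was -0.88, short of the minimum fold. *Wnt4* (chr4:137277489-137299726, plus strand, GRCm38) and *Wnt9a* had the highest mean levels per kb of exon among the ligands in WT, at 52.0 ± 11.1 and 38.3 ± 5.21 normalized counts per kb, and the order of the pair was not the same in every muscle. In *mdx5cv* muscles *Wnt4* had 21.6 ± 1.79 per kb.

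*Wnt5a*, a ligand known mainly for signals without β-catenin, went from a mean of 58.9 (51.9 to 69.1) in WT to one of 31.7 (24.5 to 39.2) in *mdx5cv* muscles. The groups did not overlap, and the log2 fold change was -0.89 (SE 0.20, limma adjusted p 0.00287). *Wnt9a*, known from joint formation, went from 127 ± 17.3 to 87.6 ± 11.5, also without overlap, with a log2 fold change of -0.54 (SE 0.15, adjusted p 0.0115). *Wnt11*, another ligand of the planar polarity kind, moved the other way, from 72.6 ± 18.1 to 106 ± 11.4. Its log2 fold change was 0.57 (SE 0.19, adjusted p 0.0308), and the lowest *mdx5cv* muscle, at 91.9, was above the highest WT muscle, at 84.0. Under equal totals *Wnt5a* and *Wnt9a* no longer passed (adjusted p 0.0703 and 0.352), while *Wnt11* did at 0.00312. *Wnt11* did not pass without WT replicate 1 (0.37, adjusted p 0.0776) or without *mdx5cv* replicate 1, 2 or 3 (adjusted p 0.0637, 0.0569 and 0.0808). *Wnt5b* ranged from 8.47 to 31.0 in WT and from 4.63 to 21.7 in *mdx5cv* muscles, and the groups overlapped (log2 fold change -0.57, adjusted p 0.347).

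Summed per kb of exon over all *Wnt* genes, the level was 129 ± 9.60 in WT and 89.1 ± 5.74 in *mdx5cv* muscles (SD, n = 4). *Wnt4* made up 40.2% ± 6.76 of that sum in WT and 24.3% ± 2.32 in *mdx5cv*. The share of *Wnt11* was 13.5% ± 2.68 and 28.7% ± 1.55, and that of *Wnt9a* 29.8% (25.6% to 34.6%) and 29.5% (26.0% to 32.7%). In *mdx5cv* muscles the shares of *Wnt9a* and *Wnt11* (26.8% to 30.2%) did not differ beyond their spread, and that of *Wnt4* ranged from 21.03% to 26.3%.

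Below the filter, *Wnt10a* had 1 or 2 reads in each WT muscle and 3 to 13 in each *mdx5cv* muscle, and *Wnt10b* had 6 to 8 against 3 to 6. *Wnt6* had 3 to 6 reads against 4 to 7, *Wnt7b* up to 2 against up to 9, and *Wnt2b* up to 4 against up to 3. *Wnt16*, *Wnt2*, *Wnt3* and *Wnt9b* had 5, 4, 2 and 1 reads over all 8 muscles. In normalized counts every *mdx5cv* muscle was above every WT muscle for *Wnt10a* and below for *Wnt10b*. With no filter on low values, limma gave *Wnt10a* a log2 fold change of 0.94 (adjusted p 0.217) and *Wnt10b* one of -0.76 (adjusted p 0.268). Of the 16 members under the filter that had reads, 0 had an adjusted or an unadjusted p under 0.05 in that fit, and 0 of the 9 with an adjusted p by DESeq2 passed.

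**Figure D2:**
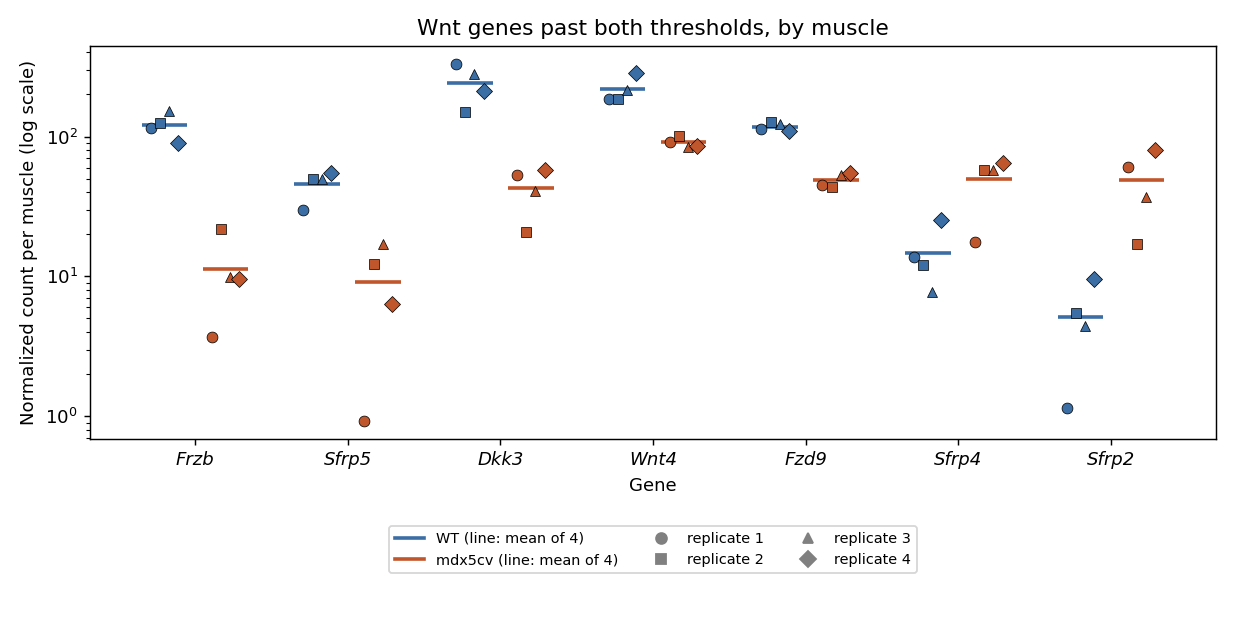
Normalized counts on a log scale (vertical axis) of the 7 members past both thresholds, with 1 symbol per muscle and the mean of 4 as a line. The groups are apart for all but *Sfrp4*, in which *mdx5cv* replicate 1 (17.6) lies inside the WT range of 7.74 to 25.4.

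All 10 protein-coding Frizzled genes passed the filter. Of these, 1 fell past both thresholds (10%), beside 3.27% of all genes. By adjusted p alone 1 more was lower and 1 higher, and 7 did not pass. With no minimum fold that made 1 of 10 higher and 2 of 10 lower, beside 20.9% and 20.1% of all genes. The median log2 fold change of the 10 Frizzled genes was 0.20. *Fzd9*, a receptor known from bone and from the nervous system, had 112, 126, 123 and 110 normalized counts in WT and 45.4, 43.4, 53.1 and 55.1 in *mdx5cv* muscles. These groups were far apart and each was narrow. The mean fell from 118 ± 7.79 to 49.3 ± 5.74, with a log2 fold change of -1.25 (SE 0.15, limma adjusted p 2.98e-05), and under equal totals that value was -0.89. *Fzd9* is a gene of 2293 exonic bases at chr5:135248938-135251230 on the minus strand (GRCm38).

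*Fzd6*, a receptor known from planar polarity and hair patterning, went from 70.3 ± 9.80 to 44.6 ± 9.99 normalized counts, without overlap (log2 fold change -0.67, SE 0.20, adjusted p 0.0176). *Fzd1* went from 52.6 ± 9.26 to 79.7 ± 11.2, also without overlap (0.60, SE 0.18, adjusted p 0.0163). Under equal totals the adjusted p of *Fzd6* was 0.198 and that of *Fzd1* 0.00206. Neither passed without 1 of the WT muscles, *Fzd6* without replicate 1 (adjusted p 0.0582) and *Fzd1* without replicate 3 (0.0545).

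*Fzd7* and *Fzd4* held the most reads per kb. *Fzd7*, a receptor of satellite cells, stood at 130 ± 4.09 normalized counts per kb in WT and 121 ± 19.7 in *mdx5cv*, and its log2 fold change was -0.12 (adjusted p 0.460), turning to 0.24 under equal totals. *Fzd4*, which also serves as the receptor of norrin in blood vessels, stood at 125 ± 8.16 and 181 ± 66.6 per kb. In WT these 2 receptors did not differ beyond their spread. The *Fzd4* normalized counts were 882, 763, 877 and 837 in WT and 986, 1853, 1203 and 838 in *mdx5cv* muscles, so that 1 muscle, replicate 2, was far above the others and replicate 4 lay within the WT range. Its log2 fold change of 0.47 had an adjusted p of 0.0612 with limma, 0.0426 with edgeR and 0.0349 with DESeq2.

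The other receptors did not pass the test. *Fzd5* had a log2 fold change of 0.39 (adjusted p 0.134), *Fzd2* 0.44 (0.282), *Fzd3* 0.39 (0.284), *Fzd8* 0.01 (0.977) and *Fzd10* -0.14 (0.775), the last turning to 0.18 under equal totals. *Fzd8* stood at 59.7 ± 6.53 normalized counts in WT and 59.7 ± 1.73 in *mdx5cv* muscles. The antisense row *Fzd10os*, which the symbol rule also took in, had 74 reads over all muscles and was under the filter.

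Neither co-receptor passed the test. *Lrp5* had 327, 262, 385 and 397 normalized counts in WT and 271, 300, 312 and 361 in *mdx5cv* muscles. These values overlapped (log2 fold change -0.13, SE 0.14, limma adjusted p 0.503), and under equal totals the sign turned, to 0.23. *Lrp6* had 1286, 1111, 1227 and 1221 in WT and 1293, 1312, 1398 and 1293 in *mdx5cv* muscles. All 4 *mdx5cv* values were just above the WT values, by a log2 fold change of 0.13 (SE 0.09, adjusted p 0.277), while under equal totals the value was 0.49 with an adjusted p of 0.00275. Per kb, *Lrp6* exceeded *Lrp5* in both groups, at 88.6 ± 5.33 against 35.2 ± 6.35 in WT and 96.9 ± 3.68 against 31.9 ± 3.85 in *mdx5cv* muscles.

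**Figure D3:**
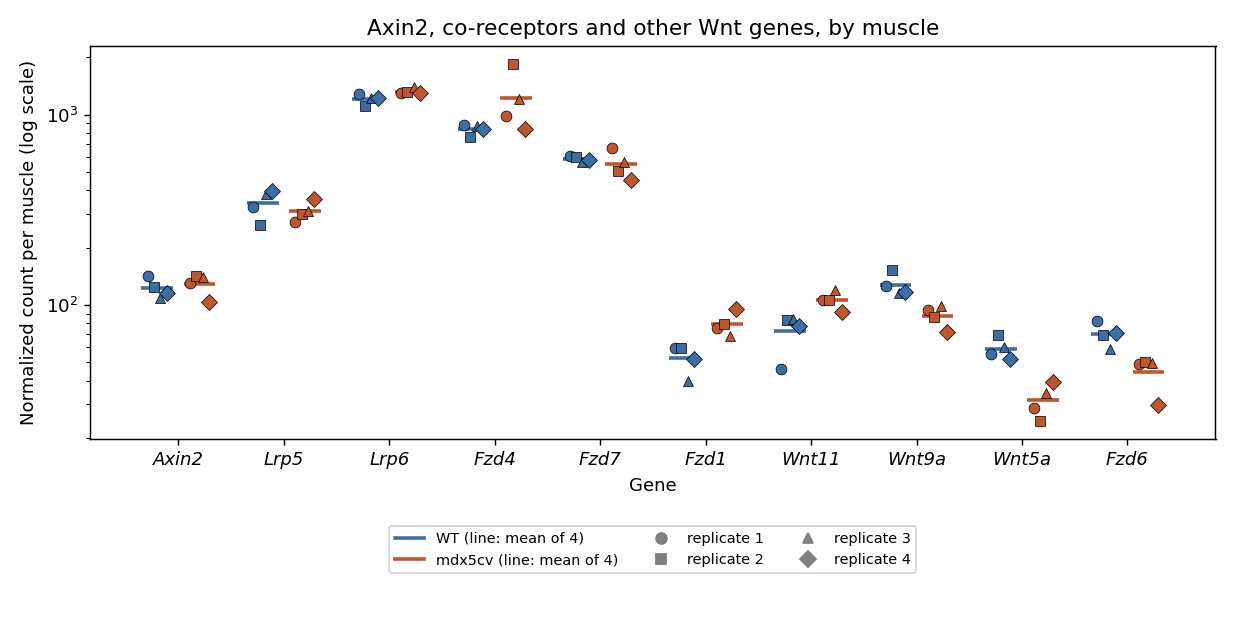
Normalized counts on a log scale (vertical axis) of *Axin2*, the co-receptors, the 2 Frizzleds with the highest level per kb and the 5 members past the adjusted p alone, with 1 symbol per muscle and the mean of 4 as a line. *Axin2* and *Lrp5* overlap between groups, and *Fzd4* reaches 1853 in *mdx5cv* replicate 2.

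The secreted inhibitors held the largest changes, in both directions. Of 10 such genes (*Sfrp*, *Frzb*, *Dkk* and *Wif1*), 7 were tested. Past both thresholds 2 rose (28.6%) and 3 fell (42.9%), beside 10.3% and 3.27% of all genes, and 2 did not pass. Of the 5 that changed, *Sfrp2* and *Sfrp5* passed the filter only through the group where each was high. *Frzb*, a frizzled-related protein first known from cartilage that binds Wnt ligands, had 116, 125, 153 and 90.0 normalized counts in WT and 3.71, 21.7, 9.91 and 9.59 in *mdx5cv* muscles. The highest *mdx5cv* muscle held less than the lowest WT muscle by a wide margin, on 4 to 23 reads against 85 to 138. The mean in WT was 10.8 times that in *mdx5cv* muscles (121 ± 25.8 against 11.2 ± 7.54), the log2 fold change was -3.51 (SE 0.37, limma adjusted p 1.47e-05), and it was the 22nd largest fall among the genes tested. *Frzb* lies at chr2:80411970-80447625 on the minus strand (GRCm38).

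*Sfrp5*, a related protein known as an adipokine, had 29.8, 49.4, 49.8 and 55.1 normalized counts in WT and 0.926, 12.3, 17.1 and 6.39 in *mdx5cv* muscles. The groups were apart, and *mdx5cv* replicate 1 rested on 1 read. Its mean went from 46.0 ± 11.1 to 9.17 ± 7.03, with a log2 fold change of -2.58 (SE 0.55, limma adjusted p 0.00236). Without *mdx5cv* replicate 1 that value was -1.92. The adipocyte markers *Lep*, *Adipoq*, *Cidec* and *Plin1* summed to 58.4 to 464 in WT and 14.8 to 51.9 in *mdx5cv* muscles, with 3 of 4 lower past both thresholds. Their part in the fall of *Sfrp5* was not tested. Within each group replicate 1 had the lowest adipocyte sum and the lowest *Sfrp5*, and WT replicate 4 had the highest of both. The whole order was not the same, as *mdx5cv* replicate 4 had the highest adipocyte sum of its group and the second lowest *Sfrp5*.

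*Dkk3*, a Dickkopf relative whose action on the co-receptors is not settled, had 331, 150, 279 and 211 normalized counts in WT. In *mdx5cv* muscles it had 52.8, 20.8, 40.5 and 57.5. The groups did not overlap although the WT values varied. The mean in WT was 5.66 times that in *mdx5cv* muscles (243 ± 78.9 against 42.9 ± 16.4), and the log2 fold change was -2.51 (SE 0.30, limma adjusted p 3.71e-05). Per kb it was the highest of all the secreted inhibitors in WT, at 72.3 ± 23.5, and it stood at 12.8 ± 4.89 in *mdx5cv* muscles. *Dkk2* did not pass, with 17.3 ± 4.81 and 16.4 ± 6.27 normalized counts (log2 fold change -0.12, adjusted p 0.809, and 0.22 under equal totals). *Dkk1*, the inhibitor that binds Lrp6, had 1 read over all 8 muscles, *Dkk4* had none, and *Wif1* had up to 12 reads in WT and 4 to 7 in *mdx5cv* muscles.

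*Sfrp2*, a frizzled-related protein of fibroblasts and matrix, was near the detection limit in WT, with 1.15, 5.48, 4.42 and 9.53 normalized counts on 1 to 9 reads. In *mdx5cv* muscles it had 60.2, 17.0, 36.9 and 79.9. Every *mdx5cv* muscle was above every WT muscle, and replicate 2 rose least. The mean was 9.43 times that of WT (48.5 ± 27.4 against 5.15 ± 3.46), with a log2 fold change of 3.01 (SE 0.52, limma adjusted p 0.000567). *Sfrp4*, a relative known from bone and phosphate handling, had 13.8, 12.1, 7.74 and 25.4 in WT and 17.6, 57.5, 57.6 and 64.7 in *mdx5cv* muscles. Here *mdx5cv* replicate 1 fell inside the WT range. The log2 fold change was 1.64 (SE 0.42, adjusted p 0.00692), and 2.07 without that muscle. *Sfrp1* went from 17.0 ± 4.73 to 26.1 ± 5.69 and did not pass (0.61, SE 0.27, adjusted p 0.0890), but did under equal totals (0.95, adjusted p 0.0240). These low counts depend on the pseudocount, and with one of 10 the log2 fold changes of *Frzb*, *Sfrp5* and *Sfrp2* were -2.67, -1.60 and 1.84, each still past both thresholds.

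Of 7 fibroblast markers, 3 rose past both thresholds (*Col1a1*, *Col3a1* and *Lum*) and none fell, and the summed level ranged from 5467 to 8263 in WT and from 17782 to 31779 in *mdx5cv* muscles. The muscle with the lowest *Sfrp2* among the *mdx5cv* muscles, replicate 2, also had the lowest sum, and the one with the highest, replicate 4, had the highest. Replicates 1 and 3 were in the opposite order (*Sfrp2* 60.2 and 36.9, sums 21403 and 23733). In WT, replicate 4 had the highest *Sfrp2* (9.53) and the lowest sum (5467). *Col1a1* and *Col3a1* held most of the *mdx5cv* sum, for example 7036 and 12538 of 23733 in replicate 3. For *Sfrp4* the lowest *mdx5cv* muscle was replicate 1, at 17.6 normalized counts, against 57.5 in replicate 2, whose sum was lower. The fibroblast genes *Pi16* and *Dcn* did not pass, with log2 fold changes of -0.01 and -0.24. What part the number or state of these cells had in the change of *Sfrp2* and *Sfrp4* was not tested.

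Within the *Sfrp* family and *Frzb*, the summed level per kb was 71.3 ± 9.63 in WT and 48.6 ± 12.7 in *mdx5cv* muscles (SD, n = 4), and its make-up turned over. *Frzb* held 52.6% ± 10.2 of the sum in WT and 7.68% ± 6.45 in *mdx5cv*, and *Sfrp5* 33.6% ± 5.45 and 10.3% ± 8.44. *Sfrp2* held 3.25% ± 2.17 in WT and 45.3% ± 22.1 in *mdx5cv*, and *Sfrp4* 5.06% (2.28% to 8.37%) and 24.3% (10.5% to 35.2%). The share of *Sfrp1* was 5.43% (4.45% to 7.34%) and 12.5% (11.03% to 15.4%). For each of these 5 genes the ranges of the shares did not overlap between groups. Shares of 1 sum are not independent, however, so falls of *Frzb* and *Sfrp5* by themselves raise the other shares. As normalized counts, *Sfrp1* (12.6 to 23.3 in WT, 18.9 to 32.8 in *mdx5cv* muscles) and *Sfrp4* overlapped between groups. Among the Frizzled genes, for comparison, *Fzd7* held 35.8% ± 0.774 and 31.7% ± 6.28, *Fzd4* 34.5% ± 2.07 and 45.9% ± 9.49, and *Fzd9* 14.2% ± 1.12 and 5.71% ± 1.42.

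**Figure D4:**
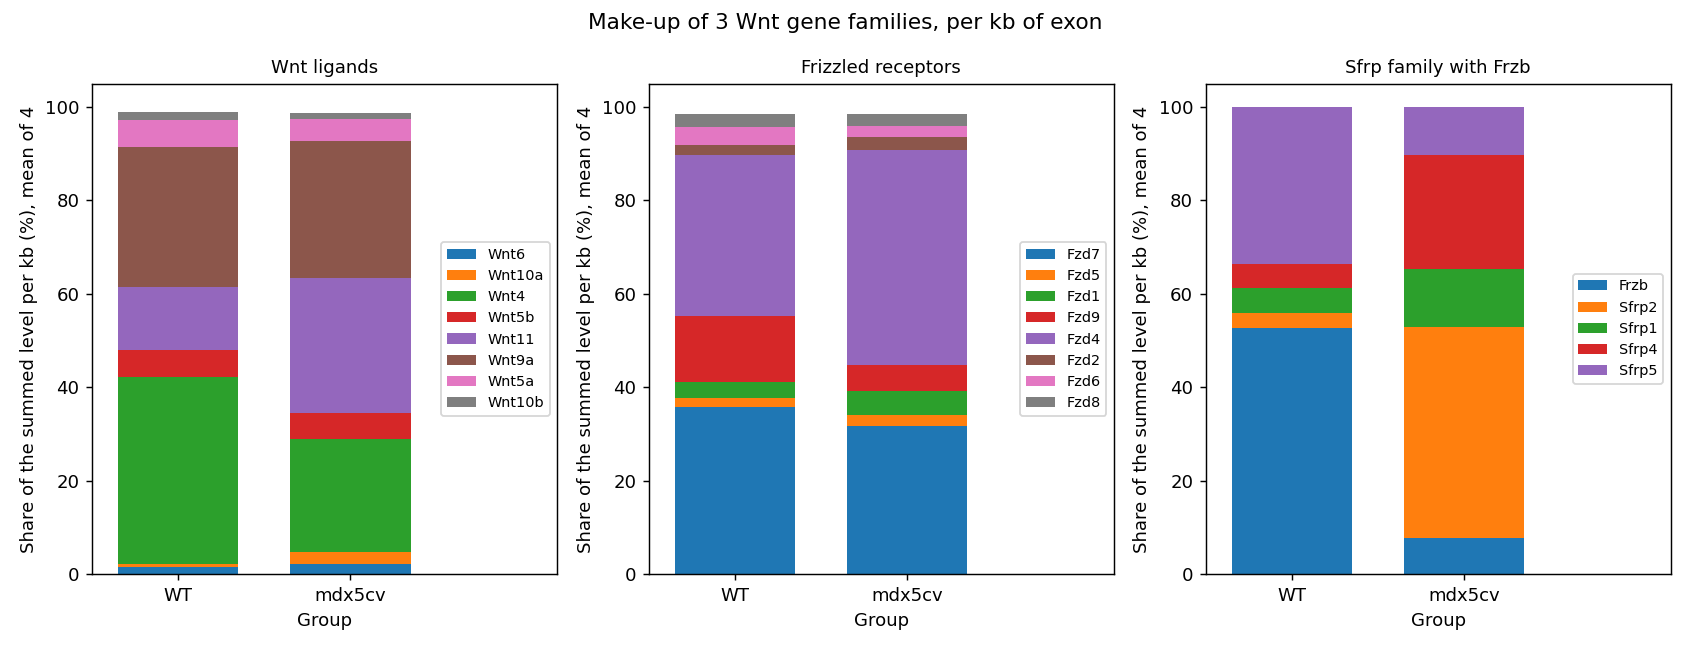
Mean share (%, vertical axis) of each gene in the level per kb of exon summed over the *Wnt* ligands, the Frizzled receptors and the *Sfrp* family with *Frzb*, in 4 WT and 4 *mdx5cv* muscles; genes with a mean share under 1% are left out. *Frzb* and *Sfrp5* fill most of the WT bar of the *Sfrp* family, and *Sfrp2* and *Sfrp4* most of the *mdx5cv* bar.

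The R-spondins were hardly detected. *Rspo3*, known from blood vessels, had 5 to 15 reads per WT muscle and 9 to 14 per *mdx5cv* muscle, just under the filter. *Rspo1* and *Rspo4* had 11 and 6 reads over all muscles, *Rspo2* had none, and the antisense row *Rspo4os* had 1. No R-spondin passed the filter.

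*Axin2*, a scaffold of the β-catenin destruction complex that is itself induced by β-catenin, had 142, 124, 108 and 115 normalized counts in WT. In *mdx5cv* muscles it had 131, 142, 140 and 103. The lowest and the highest muscle of all 8 both belonged to the *mdx5cv* group, and the groups overlapped. The log2 fold change was 0.07 (SE 0.15, limma adjusted p 0.722), with 22.2 ± 2.64 normalized counts per kb in WT and 23.5 ± 3.29 in *mdx5cv* muscles. Under equal totals it was 0.43 with an adjusted p of 0.0246, beside the median of 0.36 for all genes.

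Among 83 further genes of the Wnt pathway, grouped by role, 69 were tested, of which 11 rose (15.9%) and 4 fell (5.80%) past both thresholds, beside 10.3% and 3.27% of all genes. Of those that rose, *Ror2*, *Cthrc1*, *Tcf7*, *Vangl2* and *Nrcam* averaged under 10 in WT and passed the filter only through their *mdx5cv* values. Of those that fell, *Shisa3* averaged under 10 in *mdx5cv* muscles and passed through its WT values. With no minimum fold, 23 were higher and 13 lower, beside 20.9% and 20.1%. Their median log2 fold change was 0.14. In the secretion group neither of the 2 genes tested passed both thresholds, and *Wls*, the carrier of Wnt proteins to the cell surface, was higher by 0.42 (adjusted p 0.0112).

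At the cell surface 3 genes rose and 3 fell of 14 tested (21.4% each), beside 10.3% and 3.27% of all genes. *Ror2*, a receptor of Wnt5a, rose by 1.35 on the log2 scale (0.76 with a pseudocount of 10), and *Ptk7*, a receptor pseudokinase, by 1.55. *Cthrc1*, a secreted protein of activated fibroblasts that binds Wnt and Frizzled proteins, had 0, 0, 1.11 and 2.12 normalized counts in WT and 24.1, 7.55, 18.9 and 30.4 in *mdx5cv* muscles. The fitted log2 fold change of 3.58 depends on the pseudocount, since the WT values were at or below 3 reads. Of the surface genes that fell, *Shisa3*, which holds Frizzled proteins inside the cell, changed by -2.71 and the membrane inhibitor *Apcdd1* by -1.25. The change of *Apcdd1* was under the minimum fold with equal totals (-0.92), with a pseudocount of 10 (-0.86) and without *mdx5cv* replicate 4 (-0.95). The proteoglycan *Gpc3* went from 49.3 ± 8.80 to 11.7 ± 2.57 normalized counts (adjusted p 3.92e-05). *Lgr4*, the R-spondin receptor, was lower by adjusted p (653 ± 37.6 against 329 ± 51.7, adjusted p 4.93e-05), but its fall (-0.998) was just short of the minimum fold. With 1 muscle left out it passed both thresholds, except without WT replicate 3 or *mdx5cv* replicate 4. With edgeR (-0.98) and DESeq2 (-0.99) it stayed short.

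Of 27 cytoplasmic and nuclear genes of the β-catenin route that were tested, 2 rose past both thresholds (7.41%) and none fell, beside 10.3% and 3.27% of all genes. With no minimum fold 8 were higher and 7 lower, beside 20.9% and 20.1% of all genes. The transcription factor gene *Tcf7* rose by 1.45 (5.22 ± 3.30 to 14.95 ± 4.55 normalized counts, adjusted p 0.0155), and the corepressor gene *Tle3* by 1.06 (145 ± 15.7 to 304 ± 42.2, adjusted p 4.97e-05). *Tcf7* passed the filter through its *mdx5cv* values, and it missed the minimum fold with a pseudocount of 10 (0.72) and the adjusted p without *mdx5cv* replicate 1 (0.0528). *Tle3* was at 0.98 without WT replicate 1 or *mdx5cv* replicate 4. In the planar polarity and calcium group, *Vangl2* rose by 1.17 and *Celsr2* fell, with a log2 fold change of -1.13, of 16 tested (6.25% each way). *Vangl2* was at 0.67 with a pseudocount of 10, and its adjusted p ranged from 0.0569 to 0.0687 without WT replicate 3 or 4 or *mdx5cv* replicate 2 or 4. *Celsr2* was at -0.77 under equal totals.

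Of 13 feedback and target genes tested, 6 rose (46.2%) and 1 fell (7.69%), beside 10.3% and 3.27% of all genes. Their median log2 fold change was 0.79. *Ccnd1*, which encodes cyclin D1, went from 37.3 ± 11.2 to 161 ± 36.2 normalized counts (log2 fold change 2.10, SE 0.22, limma adjusted p 1.43e-05). *Cd44*, a hyaluronan receptor, rose by 2.84, and the matricellular genes *Ccn4* and *Ccn5* by 2.87 and 1.42. *Nrcam* rose by 2.12 with overlapping groups, *Tcf7* by the value above, and *Apcdd1* was the gene that fell. These genes have other regulators too, and immune cells also express *Cd44*. What part β-catenin had in these changes was not tested. *Axin2* is a member and so is not in this group. *Sp5* had no read, and *Lgr5* (0 to 4 reads per WT muscle, 4 to 14 per *mdx5cv* muscle) and *Notum* were under the filter. Also under it, *Rnf43* had 5 to 15 reads in WT and 0 to 3 in *mdx5cv* muscles, and *Fosl1* 0 to 4 and 2 to 19. With no filter, limma gave *Rnf43* -2.30 (adjusted p 0.00507) and *Fosl1* 2.35 (adjusted p 0.00985), and DESeq2 called both in the same directions.

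**Figure D5:**
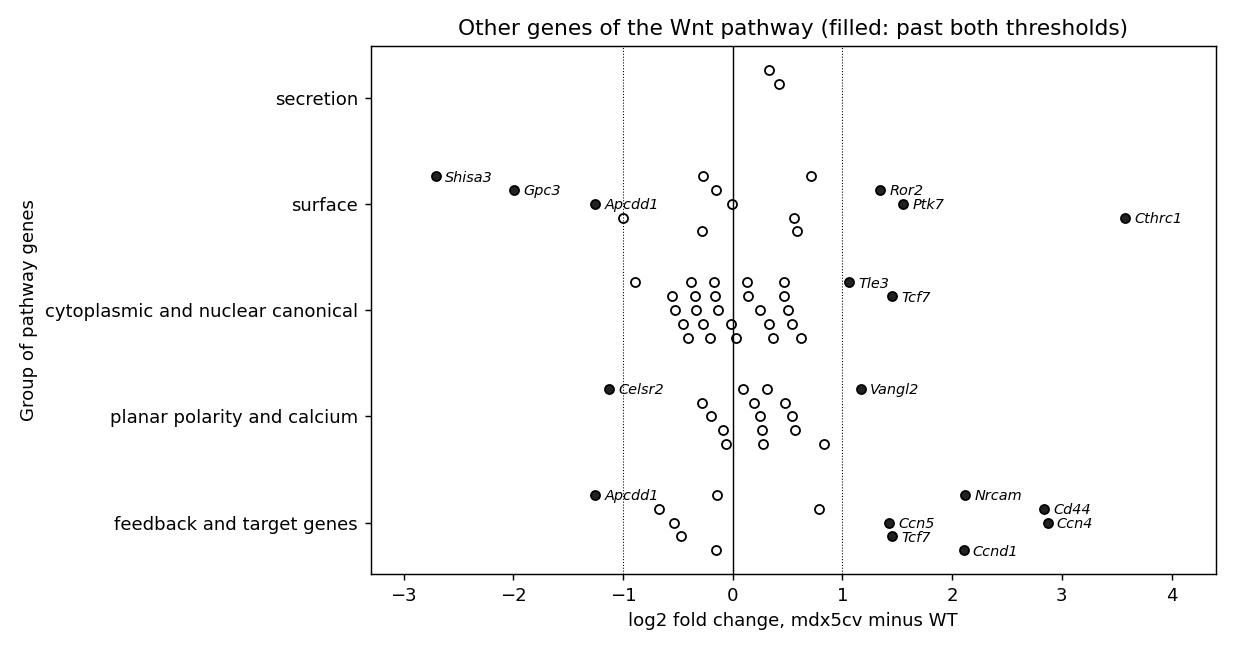
Log2 fold change (*mdx5cv* minus WT, horizontal axis) of the other pathway genes that were tested, by group, with 1 point per gene, filled and named where it passed both thresholds, and dotted lines at 1 and -1. *Tcf7*, *Apcdd1* and *Znrf3* stand in 2 groups each, and 6 of the 13 feedback and target genes rose.

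Markers of other cell types moved as well. Of 7 macrophage markers, 6 rose and *Cd163* fell, with a summed level of 415 to 633 in WT and 1929 to 4656 in *mdx5cv* muscles. All 6 genes of regenerating fibers rose, from a sum of 118 to 143 to one of 2175 to 8502, and 1 of 3 satellite cell genes tested (*Vcam1*) rose. *Pax7*, another satellite cell gene, was higher by adjusted p alone, without overlap (log2 fold change 0.91, limma adjusted p 0.00925). *Myf5* was tested too and did not pass (0.58, limma adjusted p 0.118). Under the filter, *Chrdl2* had 6 to 16 reads in WT and 1 to 8 in *mdx5cv* muscles. *Calcr*, also under it, had 2 to 6 reads in WT and 4 to 14 in *mdx5cv* muscles. Replicate 4 had the highest sums of macrophage and regenerating fiber genes among the *mdx5cv* muscles and the lowest sum of mature fast fiber genes. Without that muscle the counts of members past both thresholds were again 2 higher and 5 lower.

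Of the 5 endothelial genes none passed both thresholds and 5 were lower by adjusted p, with sums of 2442 to 2955 against 1487 to 1925. No gene passed both thresholds among 6 tenocyte, 6 mature fast fiber, 5 smooth muscle and pericyte and 4 erythrocyte markers, and no lymphocyte marker passed the filter. By adjusted p 2 mature fast fiber markers (*Actn3* and *Ckm*) and 2 erythrocyte markers were lower, and no tenocyte marker passed. Of the smooth muscle and pericyte markers, *Myh11* and *Rgs5* were lower and *Acta2* and *Cspg4* higher. Among all genes 20.9% were higher and 20.1% lower by adjusted p. The smooth muscle and pericyte markers summed to 6105 to 7350 in WT and 4260 to 4984 in *mdx5cv* muscles. The tenocyte sum overlapped between groups, at 819 to 2255 in WT and 1509 to 2310 in *mdx5cv* muscles. The part of any of these cell types in the changes of *Wnt4*, *Fzd9*, *Dkk3* and *Frzb* was not tested.

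Genes on the opposite strand overlap the exons of 6 tested members (*Sfrp2*, *Wnt5a*, *Wnt11*, *Fzd5*, *Fzd6* and *Axin2*). The library kit keeps the strand, but whether the counting used it is not stated in the sources used here. The overlapping genes had 0 to 3 reads in all over the 8 muscles.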

How the data were processed

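RNA-seq had been run on 8 TA muscles, 4 labelled *mdx5cv* and 4 labelled WT. The deposited table of 55401 genes holds what the authors made of their reads, a signal in which each count is divided by its muscle's size factor. No low genes had been removed from it. The labels describe ribosomal RNA-depleted, reverse-stranded total RNA libraries. The submitters' processing notes name the mm10 build, FastQC, Trim Galore 0.6.4, STAR 2.6.0c, SAMtools 1.9, featureCounts, MultiQC 1.6, and DESeq2 1.26.0 in R 3.6.2, and the annotation is not given in the sources used here. When a column was divided by its lowest nonzero value, 100% of values became whole (tolerance 0.001), and the deposited size factors equalled recomputed median-of-ratios factors. No library was a copy of another (chi-square per degree of freedom between replicates of 9.10 to 41.5).

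The test was limma 3.58.1 in R 4.3.3 (lmFit, eBayes with a variance trend, two-sided) on log2(normalized count + 1) over the 13677 genes with a mean of at least 10, with Benjamini-Hochberg adjustment over all of them. Fold changes are on that scale, which understates those of low genes. The thresholds, an adjusted p of 0.05 and an absolute log2 fold change of 1, were those of the study's methods for its other RNA-seq data. On the recovered reads, edgeR 4.0.16 (quasi-likelihood) called 1912 genes and DESeq2 1.42.0 called 2502 of 19094, against 1861 by limma. The scripts were tested on simulated data.

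The members, pathway lists and marker lists were chosen with earlier results of these data known. The result of 1 marker list is not reported here. Every member was named, with values per muscle for those past both thresholds and for *Axin2*, *Lrp5* and *Lrp6*; *Fzd4* was given per muscle after its values were seen. Of the other pathway genes, those past both thresholds were named. The plan was at most 5 rises and 5 falls per group, but all 6 rises of the feedback and target genes were named. *Wls*, *Lgr4*, *Znrf3* and the genes under the filter were named after their values were seen. The alternatives covered the scaling (equal totals, TMM factors, or fold changes centred on their median), the pseudocount (0.1 or 10), the filter (none, or a count of at least 10 in each muscle), the tool (limma with no variance trend, edgeR, DESeq2), the minimum fold (none, or a log2 fold of 2), a block for the replicate number, and each muscle left out in turn. Coordinates and exon lengths are those of GENCODE M21 on GRCm38, by gene ID (55141 of 55401 matched), and promoters those of RefSeq. Python 3.11.15 with pandas 2.3.3, numpy 2.4.6 and matplotlib 3.10.9 was used otherwise.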

Additional observations from a re-analysis of the deposited data

Results flagged for a closer look

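In 3 of the 50 sets of 4 muscles examined for the 25 tested members, 1 muscle stood far from the other 3 relative to the range, where chance gives about 2.5 (1 in 20). *Wnt11* was at 45.8 normalized counts in WT replicate 1 and at 77.3 to 84.0 in the other WT muscles. *Sfrp4* was at 17.6 in *mdx5cv* replicate 1 and at 57.5 to 64.7 in the others. *Fzd6* was at 29.6 in *mdx5cv* replicate 4 and at 49.1 to 50 in the others.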

How the results depend on the processing

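The 2 higher and 5 lower members were the count under TMM factors, centring on the median, both pseudocounts, no filter, no variance trend, edgeR and DESeq2. Leaving out each muscle in turn gave 2 to 2 higher and 5 to 5 lower members, and 9 to 11 higher and 3 to 5 lower pathway genes. Of 129 alternative values of the 7 members past both thresholds, 0 changed sign and 2 missed the minimum fold, both under equal totals (*Fzd9* -0.89, *Wnt4* -0.88). Equal totals gave 3 lower members, with 14 higher and 2 lower pathway genes (11 and 4 as reported). The pathway counts were 8 and 3 with a pseudocount of 10, 14 and 5 with no filter, and 13 and 5 with DESeq2. With at least 10 normalized counts required in every sample, which leaves out the called genes that are low in 1 group, 0 members were higher and 3 lower, with 4 higher and 1 lower pathway genes. With no minimum fold there were 4 higher and 8 lower members and 23 and 13 pathway genes, and at a log2 fold of at least 2 there were 1 and 3 members and 5 and 1 pathway genes. Members near 0 changed sign. Under equal totals *Dkk2* was at 0.22, *Fzd10* at 0.18, *Fzd7* at 0.24 and *Lrp5* at 0.23, and with TMM factors *Fzd8* was at -0.0093. With each muscle left out in turn *Dkk2* ranged from -0.31 to 0.15, *Fzd10* from -0.32 to 0.15 and *Fzd8* from -0.061 to 0.051. The causes were not tested.

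The replicate numbers were not shown to pair the muscles. The correlations of same-numbered deviations were 0.05, 0.03, 0.07 and 0.15, and the WT muscles 3 and 4, but not 1 and 2, matched their own number best. With the replicate block 2 members were higher and 5 lower, with 11 and 4 pathway genes, and *Fzd4* had an adjusted p of 0.0499. Members under the filter had at most 21 reads per muscle, which limits the precision of their values.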
